A study of Mus musculus with 32 samples.

Results

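The 7 genes were Rtp1, Rtp2, Reep1, Ric8b, Gnb1, Gng13 and Stoml3. Rtp1, Rtp2 and Reep1 are linked to the export of odorant receptors to the cell surface. Ric8b, Gnb1 and Gng13 serve the assembly and signalling of the olfactory G protein, and Stoml3 encodes a protein of the ciliary membrane of olfactory neurons. All 7 were chosen by symbol. Each of the 7 had exactly 1 probe set that the platform annotation pairs with its symbol alone, so no choice between probe sets was needed, and they were 7 of 19938 genes tested. The probe sets were 10434773 (Rtp1), 10438733 (Rtp2), 10539017 (Reep1), 10365408 (Ric8b), 10511069 (Gnb1), 10442829 (Gng13) and 10491993 (Stoml3). No measured value entered the pairing of gene and probe set, but the members were chosen with earlier results of these data known.

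Transcripts were measured on 32 Affymetrix arrays, each hybridised with RNA of cells sorted from dissociated olfactory mucosa of adult S100a5-tauGFP mice. S100a5 is a gene of olfactory sensory neurons whose transcript depends on neuronal activity, and GFP in this line reports it. All 8 groups carried the reporter. The labels give no strain, sex or age in weeks. Mice stood in an olfactometer with clean air for 26 h and then received pulses of 10 s every 5 min over 14 h, and the pulses held vehicle, eugenol, an odorant of cloves, or muscone, an odorant of musk. The labels do not name the vehicle. The 8 groups had 4 arrays each. In the eugenol experiments they were GFP-negative and GFP-positive cells after vehicle and the same fractions after eugenol, and in the muscone experiments GFP-negative and GFP-positive cells after vehicle and the same fractions after muscone. Each of the 4 eugenol and 4 muscone experiments gave 1 array to each of its 4 groups. Whether different arrays stand for different animals is not stated, so p-values measure the spread between these arrays only.

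Odorant receptors are poorly delivered to the plasma membrane when expressed alone. Rtp1 and Rtp2 encode receptor transporting proteins that help odorant receptors leave the endoplasmic reticulum and reach the surface, and Reep1 encodes a membrane protein of the endoplasmic reticulum that was found with them. An activated receptor acts on a G protein whose alpha subunit is Gnal (Gαolf). Gnb1 and Gng13 encode the beta and gamma subunits that pair with it, and Ric8b encodes an exchange factor and chaperone for Gαolf. Gαolf drives adenylyl cyclase (Adcy3), cyclic AMP opens a channel built from Cnga2, Cnga4 and Cngb1, and the chloride channel Ano2 carries further current. Stoml3 encodes a stomatin-family protein of the ciliary membrane of olfactory neurons.

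Promoters are shown because the 7 genes were all higher in the same sorted fraction on the deposited scale, as were 45.1% of all genes. Relative to mature neuron markers 1 was higher and 3 were lower, as described further on. The RefSeq promoter table of build GRCm38.p6 gives 300 bases a promoter, 250 before and 50 after the start of the transcript, for 6 of the 7 genes: Rtp2, Reep1, Ric8b, Gnb1, Gng13 (with 2 promoters) and Stoml3. Searched on both strands were the full palindrome of the Olf/EBF factors of olfactory neurons, 10 letters long, its inner CCCNNGGG, and TAATTA, a homeodomain core. All 3 read the same on both strands, and every full palindrome also holds a CCCNNGGG. The 3 promoters with a CCCNNGGG follow, with those letters in capitals, and then that of Stoml3, which had none of the 3 motifs.
Rtp2, chr16:23930745-23931044, minus strand: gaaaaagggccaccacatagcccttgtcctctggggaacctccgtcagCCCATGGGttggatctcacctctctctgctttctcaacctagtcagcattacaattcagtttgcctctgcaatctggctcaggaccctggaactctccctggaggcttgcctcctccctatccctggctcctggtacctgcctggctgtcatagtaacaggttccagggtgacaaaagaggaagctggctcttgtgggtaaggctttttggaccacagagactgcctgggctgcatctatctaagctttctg
Reep1, chr6:71707431-71707730, plus strand: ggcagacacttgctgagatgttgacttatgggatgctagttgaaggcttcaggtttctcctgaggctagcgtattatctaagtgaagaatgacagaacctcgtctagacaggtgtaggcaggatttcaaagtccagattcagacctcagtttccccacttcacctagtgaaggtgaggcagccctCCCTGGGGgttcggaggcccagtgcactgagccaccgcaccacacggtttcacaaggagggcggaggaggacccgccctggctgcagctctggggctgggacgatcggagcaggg
Gng13 promoter 1, chr17:25716922-25717221, plus strand: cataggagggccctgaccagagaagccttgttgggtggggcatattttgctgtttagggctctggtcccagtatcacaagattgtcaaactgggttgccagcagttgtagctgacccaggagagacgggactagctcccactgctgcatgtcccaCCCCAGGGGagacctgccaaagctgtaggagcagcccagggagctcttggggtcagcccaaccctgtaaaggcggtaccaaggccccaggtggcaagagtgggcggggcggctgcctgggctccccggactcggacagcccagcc
Stoml3, chr3:53488457-53488756, plus strand: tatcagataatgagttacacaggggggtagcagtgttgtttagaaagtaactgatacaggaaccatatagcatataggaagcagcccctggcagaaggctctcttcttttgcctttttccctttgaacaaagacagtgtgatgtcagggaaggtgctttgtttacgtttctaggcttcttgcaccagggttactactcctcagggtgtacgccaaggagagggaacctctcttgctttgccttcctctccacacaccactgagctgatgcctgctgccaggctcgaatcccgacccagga
The motif began at -202 from the start of transcription in Rtp2 and at -65 in Reep1. In Gng13 promoter 1 it occurred at -95 and -94, overlapping itself. CCCNNGGG was absent from the promoters of Ric8b, Gnb1 and Stoml3 and from Gng13 promoter 2. The full palindrome and TAATTA occurred in 0 of these promoters. Of all 32851 promoters in the table, 13.7% held CCCNNGGG, 0.904% the full palindrome and 5.29% TAATTA. Rtp1 and Rtp2 lie on the same chromosome, 16, with 6 annotated genes between them, 3 of which are protein coding: Masp1, Rtp4 and Sst. The other members lie on chromosomes 6 (Reep1), 10 (Ric8b), 4 (Gnb1), 17 (Gng13) and 3 (Stoml3).

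The deposited values are log2 signals that ran from 1.80 to 14.95. The array median over all probe sets varied by experiment. It was 6.72 to 6.86 on the 4 arrays of muscone experiment 3 and up to 8.55 to 8.81 in eugenol experiment 2. For that reason every tested difference between fractions or treatments was fitted within experiments. In the vehicle arrays all 12 mature olfactory neuron markers were higher in GFP-positive cells (median difference 0.61), and 9 of 11 immature neuron markers, 6 of 6 progenitor markers, 6 of 6 microvillous cell markers and 12 of 12 immune cell markers were lower. Among all genes 45.1% were higher and 21.9% lower there. Averaged over its list, the immune level was 7.28 to 9.41 on the GFP-positive and 10.6 to 12.3 on the GFP-negative arrays, and the mature neuron level 11.6 to 13.6 and 10.3 to 13.3. The olfactory marker protein gene Omp was 0.27 higher in GFP-positive cells (adjusted p = 0.00114) and S100a5 0.43 higher (adjusted p = 0.0171). S100a5 stood far above its other levels in eugenol experiment 1 alone, where the mean of its 4 arrays was 11.41, against 4.86 to 7.43 in the other 7 experiments. The cell mixture of the fractions thus moved with every difference between them, and its part in the results for the 7 genes was not tested. In sorted bulk RNA, fewer cells of a type and less RNA per cell cannot be told apart.

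Under vehicle, all 7 genes were higher in GFP-positive than in GFP-negative cells on the deposited scale, whereas relative to mature neuron markers 1 was higher and 3 were lower, and relative to the median odorant receptor 0 were higher and 4 lower. The largest difference was that of Reep1 and the smallest those of Gnb1 and Stoml3. Against this stands the background, since 45.1% of all genes tested were higher in GFP-positive cells and 21.9% lower (67% called in all) at an adjusted p under 0.05 (limma, Benjamini-Hochberg over all genes). The median difference was 0.47 over the 7 genes and 0.14 over all genes. The difference was above 0 in 8 of 8 experiments for each of the 7 genes, as it was for 26.4% of all genes.

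**Figure D1:**
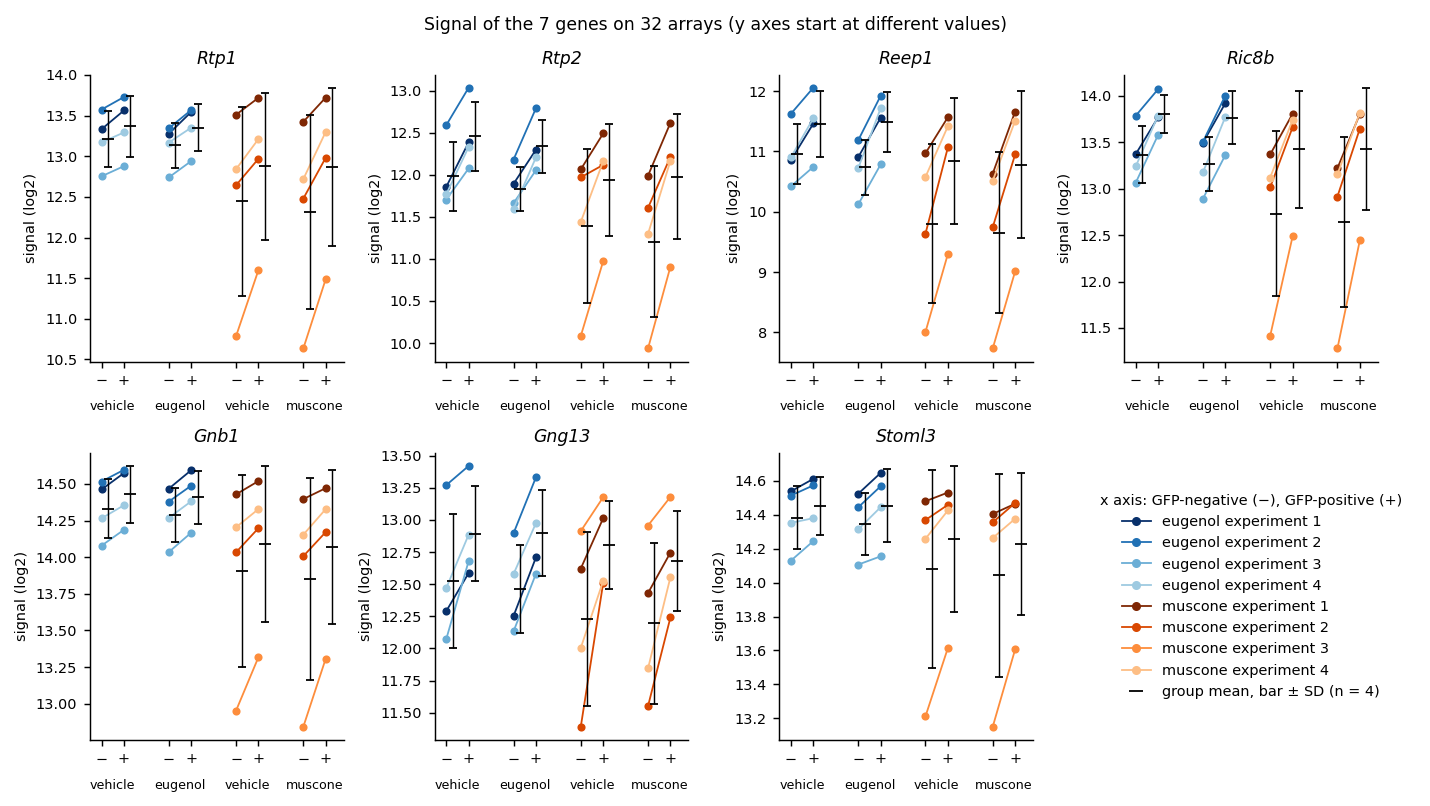
Signal (log2, y axis) of each of the 7 genes on the 32 arrays, with 1 panel a gene. Points are arrays in GFP-negative (−) and GFP-positive (+) cells, lines join the arrays of 1 experiment and stimulus, and black bars give the mean ± SD of the 4 arrays of a group. All lines rise from − to +, and muscone experiment 3 lies lowest in every gene other than Gng13, where it lies highest among the muscone experiments.

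Among the receptor transport genes, Rtp1 read 13.33, 13.57, 12.75 and 13.17 in the GFP-negative cells of eugenol experiments 1 to 4 under vehicle and 13.56, 13.73, 12.88 and 13.29 in the GFP-positive cells. In muscone experiments 1 to 4 the values were 13.51, 12.64, 10.79 and 12.84 in GFP-negative and 13.72, 12.97, 11.60 and 13.21 in GFP-positive cells. The fractions overlapped across experiments, experiment 3 was the low one in both sets, and within each experiment the GFP-positive array was the higher. The difference was 0.29 (SE 0.059, adjusted p = 1.89e-04), a 1.23-fold change.

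Rtp2, the neighbour of Rtp1 with the same role, read 11.86, 12.59, 11.71 and 11.77 in GFP-negative and 12.39, 13.04, 12.08 and 12.33 in GFP-positive cells of eugenol experiments 1 to 4 under vehicle. The muscone experiments gave 12.06, 11.97, 10.08 and 11.44 and 12.49, 12.12, 10.97 and 12.16. Eugenol experiment 2 was high in both fractions and muscone experiment 3 low in both, so the groups overlapped. Rtp2 was 0.51 higher in GFP-positive cells (SE 0.067, adjusted p = 9.57e-07), or 1.43-fold. By experiment the difference ran from 0.15 in muscone experiment 2 to 0.89 in muscone experiment 3.

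Reep1 had the widest range of the 7 genes, from 7.73 to 12.06 over the 32 arrays. Under vehicle it read 10.86, 11.63, 10.42 and 10.90 in GFP-negative and 11.46, 12.06, 10.74 and 11.55 in GFP-positive cells of the eugenol experiments. In the muscone experiments it read 10.97, 9.64, 8.01 and 10.58 and 11.57, 11.07, 9.30 and 11.42. Groups overlapped here too, with muscone experiment 3 lowest in both fractions. The difference of 0.77 (SE 0.078, adjusted p = 2.35e-08, 1.71-fold) was the largest among the members. It ran from 0.32 in eugenol experiment 3 to 1.43 in muscone experiment 2.

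Of the G protein genes, Ric8b, the Gαolf chaperone, read 13.37, 13.79, 13.06 and 13.24 in GFP-negative and 13.77, 14.07, 13.58 and 13.79 in GFP-positive cells of eugenol experiments 1 to 4 under vehicle. Its muscone values were 13.37, 13.01, 11.42 and 13.12 and 13.81, 13.66, 12.49 and 13.74. Muscone experiment 3 lay more than a log2 unit under the other arrays of its groups, and the fractions overlapped. The difference was 0.57 (SE 0.0674, adjusted p = 2.56e-07, 1.48-fold).

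Gnb1, the beta subunit gene, read 14.46, 14.52, 14.08 and 14.27 in GFP-negative and 14.57, 14.60, 14.19 and 14.36 in GFP-positive cells of the eugenol experiments under vehicle, and 14.43, 14.03, 12.95 and 14.20 and 14.52, 14.20, 13.32 and 14.33 in the muscone experiments. The fractions overlapped almost wholly. Within experiments the difference was 0.14 (SE 0.0418, adjusted p = 0.00546, 1.10-fold). Without muscone experiments 2 and 3, whose array medians were the lowest of the series (an alternative chosen after seeing the data), it was 0.10 with an adjusted p of 0.0507.

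Gng13, the gamma subunit gene, read 12.29, 13.27, 12.07 and 12.47 in GFP-negative and 12.59, 13.42, 12.68 and 12.89 in GFP-positive cells of the eugenol experiments under vehicle. In the muscone experiments it read 12.62, 11.39, 12.91 and 12.00 and 13.01, 12.51, 13.18 and 12.53. Here muscone experiment 3 was the highest array of both muscone groups and experiment 2 the lowest. The difference was 0.47 (SE 0.0785, adjusted p = 2.28e-05, 1.39-fold), from 0.15 in eugenol experiment 2 to 1.12 in muscone experiment 2.

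Stoml3, the ciliary membrane gene, read 14.54, 14.51, 14.13 and 14.35 in GFP-negative and 14.61, 14.57, 14.24 and 14.38 in GFP-positive cells of the eugenol experiments under vehicle, and 14.48, 14.37, 13.21 and 14.26 and 14.53, 14.46, 13.61 and 14.42 in the muscone experiments. All arrays other than those of muscone experiment 3 lay within a narrow band, and the fractions overlapped. The difference was 0.12 (SE 0.0441, adjusted p = 0.0184, 1.09-fold), the smallest of the 7. It was 0.09 with an adjusted p of 0.0796 without muscone experiments 2 and 3. Rtp1, Ric8b, Gnb1 and Stoml3 were among the 100 genes with the highest mean signal (12.83 or more). Those 100 genes had a median difference of 0.10, with 51 higher and 17 lower, beside 45.1% and 21.9% of all genes. Whether the upper end of the scale narrows these differences was not tested.

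The plain means of the 8 groups also carry the differences between experiments and were not tested. Ordered by them, for all 7 genes the lowest mean was that of GFP-negative cells after muscone, and the highest was that of GFP-positive cells of the eugenol experiments, after vehicle for Rtp1, Rtp2, Ric8b and Gnb1 and after eugenol for Reep1, Gng13 and Stoml3. Reep1 thus ran from 9.65 ± 1.34 to 11.50 ± 0.50 (SD, n = 4), and Stoml3 from 14.04 ± 0.60 to 14.45 ± 0.22 (SD, n = 4). In each gene, 0 of 7 gaps between neighbouring group means exceeded the larger SD of its pair.

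After odorant exposure the fractions differed in the same direction on the deposited scale, whereas relative to the mature markers 1 gene was higher and 3 were lower after eugenol and 1 was higher and 4 lower after muscone, and relative to the median odorant receptor 0 were higher and 3 and 4 lower. After eugenol, 5 of 7 genes were higher in GFP-positive cells and 0 lower, beside 28.3% higher and 18.3% lower (46.6% in all) among all genes. After muscone 7 of 7 were higher, beside 35.1% higher and 21.5% lower (56.6% in all). The median difference over the members was 0.43 after eugenol and 0.56 after muscone, against 0.12 and 0.14 over all genes. Every member was above 0 in 4 of 4 experiments with each odorant, as were 46.2% of all genes after eugenol and 40.4% after muscone.

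**Figure D2:**
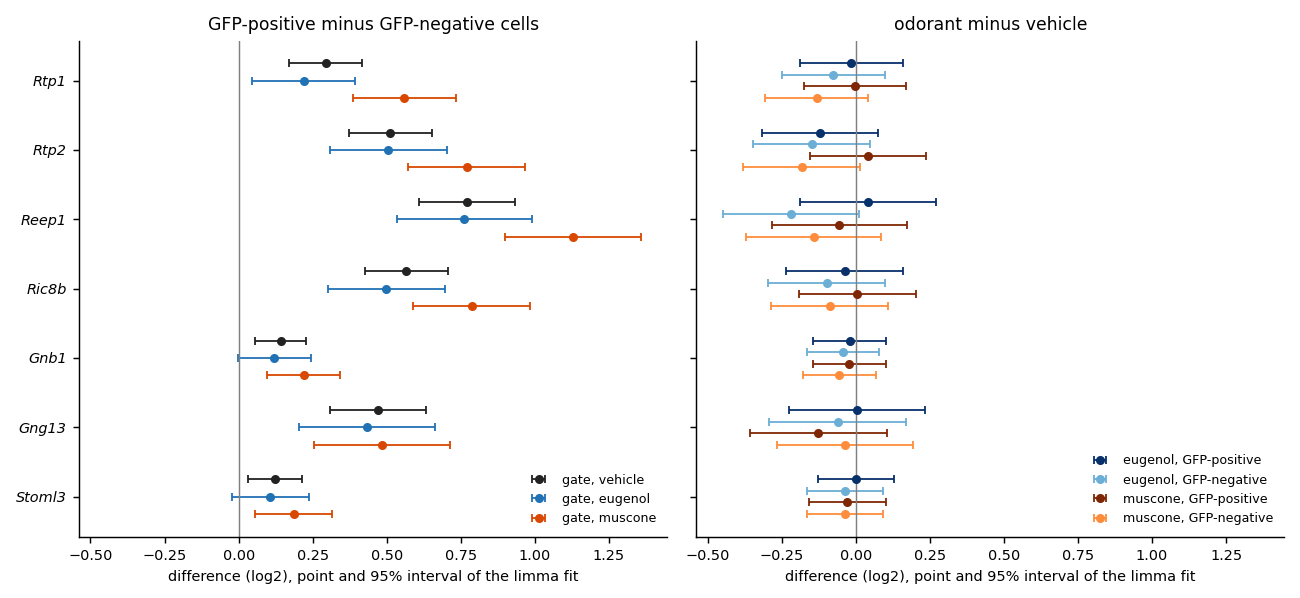
Log2 differences (x axis) of the 7 genes, with points and 95% intervals from the limma fit, between sorted fractions (left, GFP-positive minus GFP-negative after vehicle, eugenol or muscone) and between odorant and vehicle (right). Points of the differences between fractions lie above 0 for all members, though the intervals of Gnb1 and Stoml3 after eugenol include 0. Every interval of an odorant effect includes 0.

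Reep1 after eugenol read 10.90, 11.19, 10.12 and 10.72 in GFP-negative and 11.56, 11.92, 10.78 and 11.72 in GFP-positive cells. After muscone the values were 10.63, 9.74, 7.73 and 10.51 and 11.66, 10.95, 9.01 and 11.51. In every experiment the GFP-positive array was higher, although the groups overlapped. The difference was 0.76 after eugenol (adjusted p = 8.95e-06) and 1.13 after muscone (adjusted p = 1.88e-08, 2.18-fold).

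Rtp1 after eugenol read 13.28, 13.34, 12.74 and 13.17 in GFP-negative and 13.54, 13.57, 12.94 and 13.35 in GFP-positive cells, and after muscone 13.42, 12.48, 10.64 and 12.72 and 13.72, 12.98, 11.49 and 13.30. The fractions overlapped in both. Its difference was 0.22 after eugenol (adjusted p = 0.0362) and 0.56 after muscone (adjusted p = 6.26e-06). The eugenol value did not pass without any 1 of the 4 eugenol experiments (0.20 to 0.23, adjusted p = 0.0793 to 0.127) or without muscone experiment 2 (0.0505) or 4 (0.054).

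Rtp2 after eugenol read 11.89, 12.18, 11.66 and 11.59 in GFP-negative and 12.30, 12.79, 12.05 and 12.21 in GFP-positive cells, and after muscone 11.99, 11.61, 9.94 and 11.30 and 12.62, 12.21, 10.91 and 12.17. The eugenol fractions met only at the top GFP-negative and the lowest GFP-positive array. The difference was 0.51 (adjusted p = 1.75e-04) after eugenol and 0.77 (adjusted p = 4.83e-07) after muscone.

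Ric8b after eugenol read 13.50, 13.51, 12.89 and 13.17 in GFP-negative and 13.92, 14.00, 13.36 and 13.77 in GFP-positive cells, and after muscone 13.22, 12.92, 11.28 and 13.15 and 13.80, 13.65, 12.44 and 13.82. Experiment 3 was the lowest in each of the 4 groups. The differences were 0.50 (adjusted p = 2.15e-04) and 0.79 (adjusted p = 3.87e-07).

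Gng13 after eugenol read 12.25, 12.90, 12.13 and 12.58 in GFP-negative and 12.71, 13.33, 12.58 and 12.97 in GFP-positive cells, and after muscone 12.43, 11.55, 12.96 and 11.84 and 12.75, 12.24, 13.18 and 12.55. As under vehicle, muscone experiment 3 was high and experiment 2 low. The differences were 0.43 (adjusted p = 0.00302) and 0.48 (adjusted p = 8.14e-04).

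Gnb1 after eugenol read 14.47, 14.38, 14.04 and 14.27 in GFP-negative and 14.59, 14.49, 14.17 and 14.38 in GFP-positive cells, and after muscone 14.40, 14.01, 12.84 and 14.15 and 14.47, 14.17, 13.31 and 14.33. The fractions overlapped in both. The eugenol difference of 0.12 (95% interval -0.0027 to 0.24) did not pass (adjusted p = 0.0995, and 0.0415 without muscone experiment 3), and the muscone difference was 0.22 (adjusted p = 0.00325). The latter was 0.14 without muscone experiment 3 (adjusted p = 0.0366) and 0.12 without experiments 2 and 3 (adjusted p = 0.154).

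Stoml3 after eugenol read 14.52, 14.44, 14.11 and 14.31 in GFP-negative and 14.65, 14.57, 14.15 and 14.44 in GFP-positive cells, and after muscone 14.40, 14.35, 13.15 and 14.26 and 14.46, 14.47, 13.61 and 14.38. The eugenol difference of 0.11 (95% interval -0.02 to 0.24) did not pass (adjusted p = 0.164), and the muscone difference was 0.19 (adjusted p = 0.0152). Without muscone experiment 3 it was 0.10 with an adjusted p of 0.13. Whether the fractions differed more in the muscone than in the eugenol experiments was tested under vehicle. There the muscone minus eugenol difference was 0.07 to 0.54 over the 7 genes, 0 of 7 passed (adjusted p = 0.181 for Reep1 to 0.823 for Rtp2), 2 had an unadjusted p under 0.05 (Reep1 and Rtp1), and 0% of all genes were called. Relative to the mature markers that difference lay below 0 for 6 of the 7 genes, and relative to the median odorant receptor for 0.

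On the deposited scale 0 of 7 genes passed the threshold after either odorant in either fraction, and 0 of 7 had an unadjusted p under 0.05 in any of the 4 comparisons with vehicle (limma). Among all genes 0% were called after eugenol in either fraction and after muscone in GFP-negative cells, and 0.00502%, 1 gene, after muscone in GFP-positive cells. In GFP-positive cells the estimates were -0.12 (Rtp2) to 0.04 (Reep1) after eugenol and -0.13 (Gng13) to 0.04 (Rtp2) after muscone (adjusted p = 0.999 and 0.9999). Their 95% intervals reached at most from -0.32 to 0.27 for eugenol and from -0.36 to 0.24 for muscone.

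In GFP-negative cells the estimate lay below 0 for all 7 genes after both odorants on the deposited scale, whereas relative to the mature markers it lay above 0 for 5 genes after eugenol and 6 after muscone, and relative to the median odorant receptor for 5 and 7. On the last scale Gnb1 (0.23, adjusted p = 0.0356) and Stoml3 (0.25, adjusted p = 0.0371) passed as higher after muscone, as did 50.7% of all genes, whose median there was 0.29. The median of the 12 mature markers in the same cells was -0.15 after eugenol and -0.16 after muscone on the deposited scale, with 0 called. The deposited estimates of the 7 genes were -0.22 (Reep1) to -0.04 (Stoml3) after eugenol (adjusted p = 0.9999, lowest unadjusted p = 0.06) and -0.18 (Rtp2) to -0.04 (Stoml3) after muscone (adjusted p = 0.619 to 0.962). The median over all genes was -0.04 and 0.01. Rtp1 was lower after the odorant in the GFP-negative cells of 8 of 8 experiments, by -0.23 to -0.0019, as were 0.667% of all genes, and the other 6 genes in 4 to 7 of 8. Relative to the mature markers Rtp1 lay below 0 in 3 of 8 experiments and above 0 in 5. The change of the difference between fractions was 0.02 to 0.26 after eugenol and -0.09 to 0.22 after muscone, and 0 of 7 passed (adjusted p = 0.985 to 0.9999, 0 at an unadjusted p under 0.05), beside 0% and 0.00502% of all genes. Relative to the mature markers that change lay below 0 for 6 genes after eugenol and 5 after muscone. Relative to the median odorant receptor it did so for 0 and 7.

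Because GFP-positive cells held more mature neuron transcript, the members were also set against the mean of the 12 mature neuron markers, none of which is a member. Stoml3, Gnb1 and Rtp1 differed between the fractions by less than the markers did, and Reep1 by more. Their mean signals were 14.28, 14.17, 12.95 and 10.71, and that of Ric8b, which did not pass, was 13.30. The part of signal level in these differences was not tested. The difference relative to the markers was -0.45 for Stoml3 (SE 0.0711, adjusted p = 3.67e-06), -0.43 for Gnb1 (SE 0.0704, adjusted p = 5.75e-06) and -0.28 for Rtp1 (SE 0.0666, adjusted p = 5.12e-04). These 3 lay below 0 in 8 of 8 experiments. That is the side of most genes, since 84.1% of all genes were lower on this scale, 56.7% lay below 0 in 8 of 8 experiments, and the median over all genes was -0.44. Omp, itself a marker, also lay below 0 in 8 of 8 experiments, by -0.15 to -0.48.

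**Figure D3:**
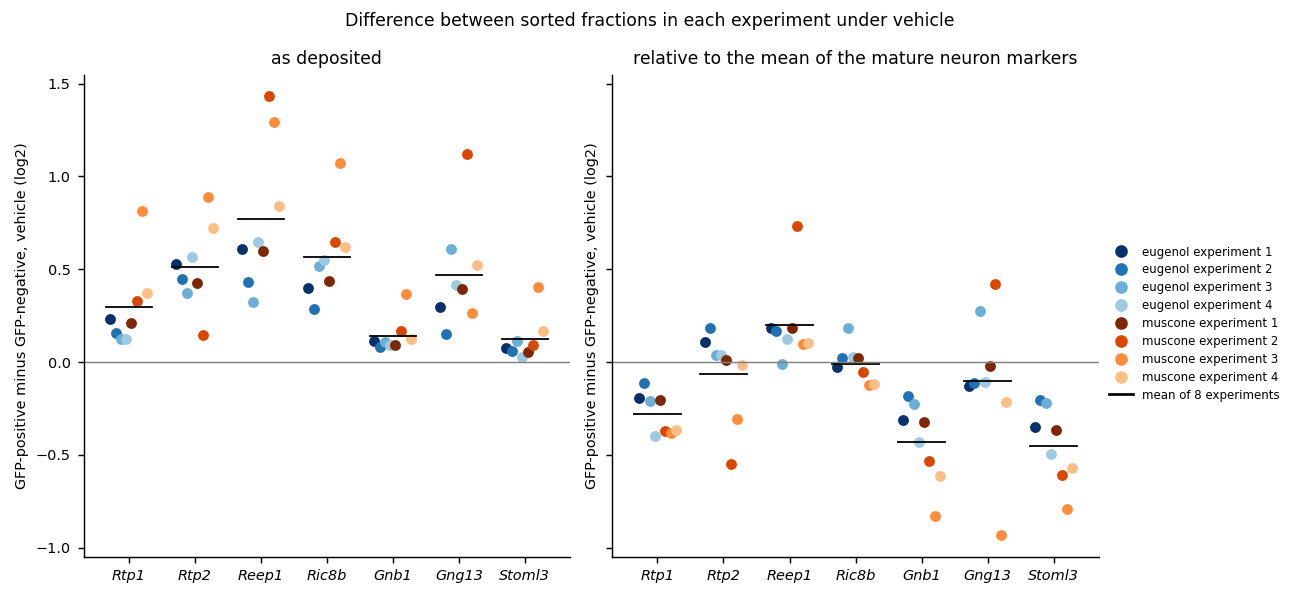
GFP-positive minus GFP-negative difference under vehicle (log2, y axis) of each of the 7 genes in each of the 8 experiments, as deposited (left) and relative to the mean of 12 mature neuron markers (right), with black lines at the means. As deposited all points lie above 0. Relative to the markers Rtp1, Gnb1 and Stoml3 lie below 0 in 8 of 8 experiments and Reep1 above 0 in 7 of 8.

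Reep1 was 0.20 above the markers (SE 0.0768, adjusted p = 0.0199), where 3.45% of all genes were higher and 87.6% passed in either direction. It lay above 0 in 7 of 8 experiments, as did 3.75% of all genes in at least 7 of 8. The call was lost without eugenol experiment 1 (0.19, adjusted p = 0.0625), 2 (0.19, 0.0558) or 4 (0.20, 0.0516) or muscone experiment 2 (0.12, 0.14). Ric8b (-0.0087, 95% interval -0.14 to 0.12), Rtp2 (-0.06, -0.22 to 0.09) and Gng13 (-0.10, -0.34 to 0.14) did not pass (adjusted p = 0.895, 0.424 and 0.394). Without muscone experiment 3 Gng13 stood at 0.02 (adjusted p = 0.788), and without muscone experiment 2 Rtp2 stood at -0.0065 (adjusted p = 0.941), with 5 of its 8 experiments above 0. By experiment Gng13 had the widest spread on this scale, from -0.93 in muscone experiment 3 to 0.42 in muscone experiment 2.

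Relatives of the 7 genes moved in both directions between the fractions under vehicle. Of 7 measured relatives of the receptor transport genes, 1 was higher in GFP-positive cells and 4 were lower, beside 45.1% and 21.9% of all genes. Their median was -0.29 against 0.14 over all genes. Reep5 (-1.53, adjusted p = 4.67e-09), Reep4 (-0.84, adjusted p = 6.34e-08) and Reep3 (-0.29, adjusted p = 2.36e-04), which belong with Reep1 to a family of membrane proteins of the endoplasmic reticulum, were lower. Rtp3 was 0.28 higher (adjusted p = 0.00263), though relative to the mature markers it stood at -0.29. Rtp4, which lies between Rtp1 and Rtp2 and is known as an interferon-induced gene, was lower (-0.40, adjusted p = 0.00441). It was named for its position after its values were seen.

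**Figure D4:**
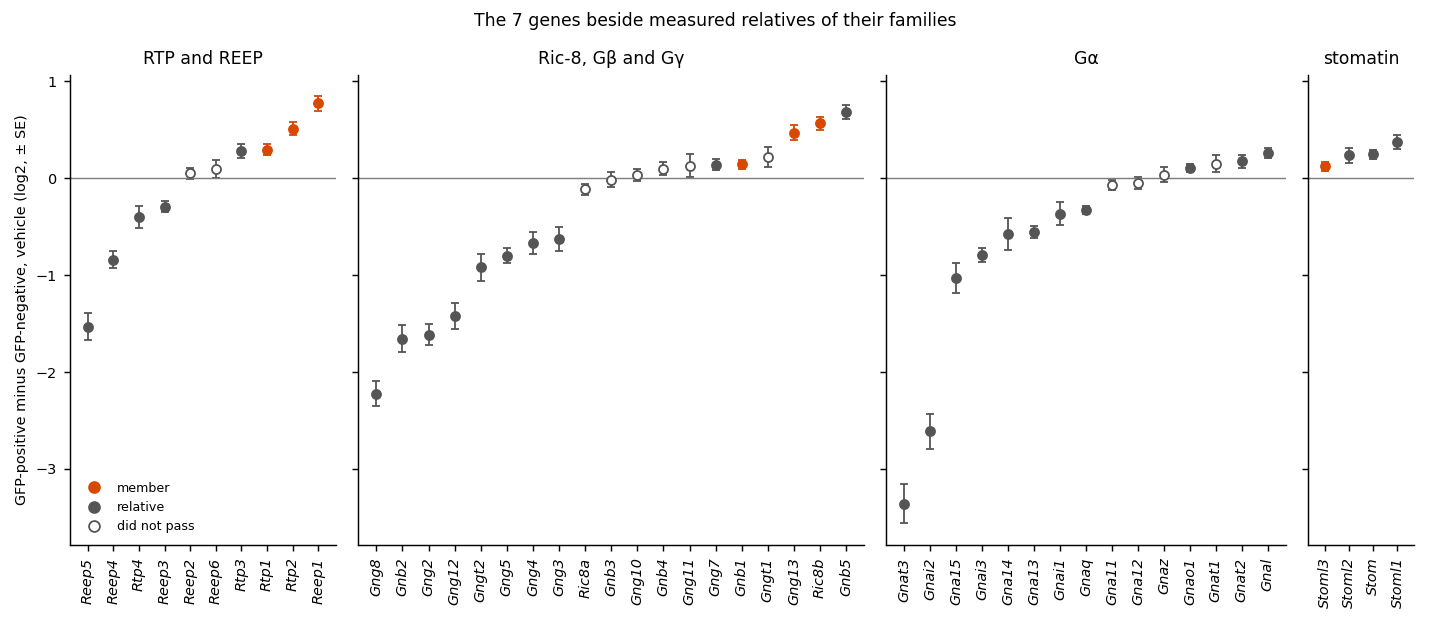
GFP-positive minus GFP-negative difference under vehicle (log2 ± SE, y axis) of the 7 genes (orange) and measured relatives (grey), by family. Filled points passed at an adjusted p under 0.05. Most relatives of the RTP, REEP, Gβ, Gγ and Gα families that passed lie below 0, and the members above it on the deposited scale.

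Of 16 measured relatives of Ric8b, Gnb1 and Gng13, 2 were higher and 8 lower (median -0.37), beside 45.1% and 21.9% of all genes. The lowest of the named ones were Gng8 (-2.22, adjusted p = 5.03e-12), a gamma subunit of immature olfactory neurons, Gnb2 (-1.66, adjusted p = 1.53e-09), Gng2 (-1.62, adjusted p = 3.77e-11) and Gng12 (-1.42, adjusted p = 1.03e-08). The 2 higher ones, chosen here after their values were seen, were Gnb5 (0.68, adjusted p = 2.21e-08) and Gng7 (0.14, adjusted p = 0.0335), of which Gnb5 did not pass relative to the mature markers (0.11, adjusted p = 0.206) and Gng7 turned to -0.44. Ric8a, the other Ric-8 gene, also chosen after its value was seen, did not pass (-0.12, adjusted p = 0.0589).

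Of 15 measured G protein alpha subunits 3 were higher and 8 lower (median -0.33), beside 45.1% and 21.9% of all genes. Gnat3, the alpha subunit of taste and chemosensory cells, was lower (-3.36, adjusted p = 8.75e-12), as were Gnai2 (-2.61, adjusted p = 6.14e-11), Gnai3 (-0.79, adjusted p = 4.72e-09) and Gna13 (-0.55, adjusted p = 9.36e-08). The 3 higher ones, chosen after their values were seen, were Gnal (0.26, adjusted p = 1.93e-04), the partner of Ric8b, Gnb1 and Gng13, Gnat2 (0.17, adjusted p = 0.0264) and Gnao1 (0.11, adjusted p = 0.0264), and relative to the mature markers, which include Gnal, they turned to -0.31, -0.40 and -0.47.

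All 3 measured relatives of Stoml3 were higher, beside 45.1% of all genes. The difference was 0.37 for Stoml1 (adjusted p = 1.30e-04), 0.25 for Stom (adjusted p = 8.34e-05) and 0.24 for Stoml2 (adjusted p = 0.0116). Relative to the mature markers all 3 were lower (-0.20, -0.32 and -0.34), beside 84.1% of all genes. Of 9 measured genes downstream of the G protein, 8 were higher and 1 lower (median 0.63), beside 45.1% and 21.9% of all genes. Relative to the mature markers, 8 of which come from this list, 4 were higher and 2 lower, beside 3.45% and 84.1%. Pde1c, a phosphodiesterase of olfactory cilia, was 0.81 higher (adjusted p = 5.90e-08), Ano2 0.79 (adjusted p = 4.41e-07), the exchanger gene Slc24a4 0.72 (adjusted p = 8.99e-07) and the channel subunit gene Cnga4 0.63 (adjusted p = 4.30e-07). The 1 lower gene was Grk3, a receptor kinase (-1.10, adjusted p = 3.71e-05), named after its value was seen. The relatives that turned below 0 relative to the mature markers did so relative to the median odorant receptor as well. That was bound to follow, since centring moves every gene alike, by -0.64 there and by -0.57 with the mature markers.

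By experiment, 6 of the 7 genes had their lowest mean in muscone experiment 3, where the array medians were lowest too. Reep1 averaged 8.51 there over 4 arrays against 10.35 to 11.70 in the other 7 experiments, and Rtp1 11.13 against 12.77 to 13.59. Gng13 averaged 13.06 there, second to eugenol experiment 2 at 13.23, and its lowest mean was 11.92 in muscone experiment 2. Each array's median over all genes tested was then subtracted. Gng13 in muscone experiment 3 stood at 5.85 on that scale, above 3.62 to 4.35 in the other experiments. Rtp1 (3.92 against 4.39 to 4.86) and Reep1 (1.31 against 2.36 to 2.54) stayed the lowest there. Gnb1 (5.90) and Stoml3 (6.19) were then inside the span of the others, at 5.33 to 6.14 and 5.36 to 6.45, as were Ric8b and Rtp2. The cause of these departures was not tested.

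For correlations, each array's median over all genes tested was subtracted. Over the 32 arrays, Pearson's r between pairs of the 7 genes then ran from -0.18 (Rtp1 and Gng13) to 0.96 (Gnb1 and Stoml3). The median was 0.64 over 21 pairs. With each experiment's mean also subtracted, r was 0.85 to 0.99, with a median of 0.96. These values are descriptions, since arrays share experiments, stimuli and above all the sorted fraction. High r was also common outside the 7 genes once experiment means were subtracted. For Gnb1 a gene at r = 0.96 (Fstl5) stood at place 701, and for Stoml3 one at 0.91 (Hnrnpu) at place 2320.

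**Figure D5:**
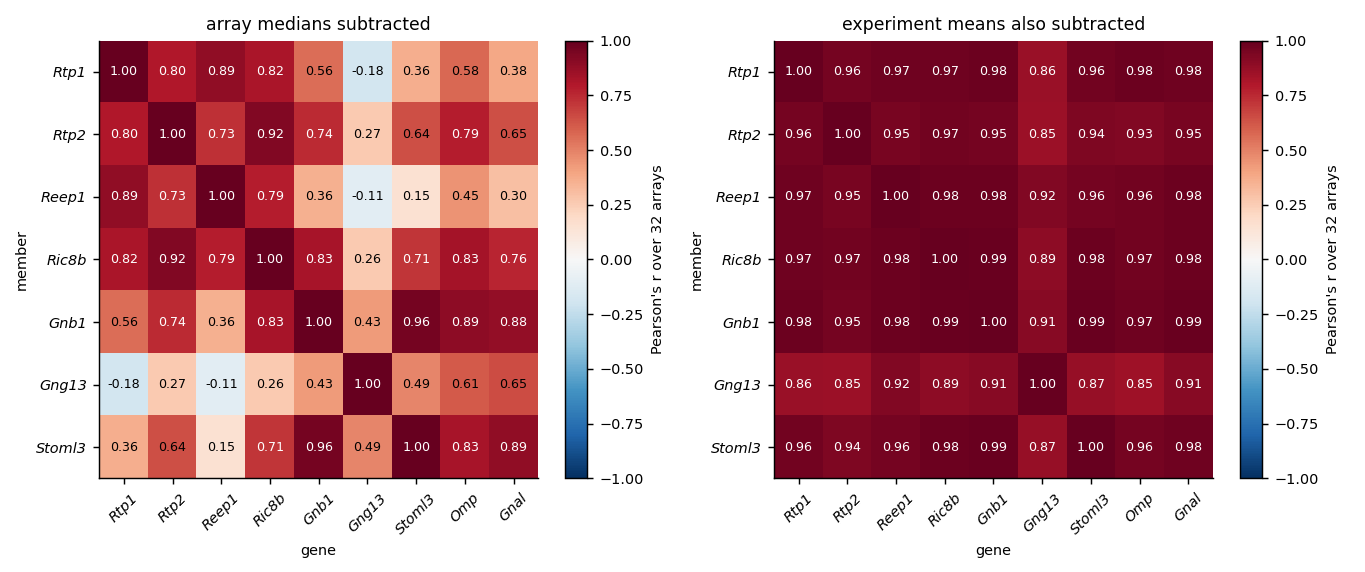
Pearson's r over 32 arrays between the 7 genes (rows) and the same genes, Omp and Gnal (columns), with array medians subtracted (left) and with experiment means also subtracted (right). The medians were those over all genes tested. Gng13 stands apart on the left, with r of -0.18 to 0.65, and much less on the right, with 0.85 to 0.92.

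The genes most like each member over the 32 arrays, with the same array medians subtracted, differed from member to member. Rtp1 was followed by Syt1 (r = 0.98), a calcium sensor of vesicle release, Spef2 (0.98) and Tmem63b (0.97). The nearest to Reep1 were Gpr162 (0.98), the sodium-calcium exchanger gene Slc8a1 (0.97) and the potassium channel gene Kcnj2 (0.97), and those to Rtp2 were Mmut (0.96), Kifbp (0.95) and Acp2 (0.95).

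Ric8b was nearest to Rap1gds1 (0.98), an exchange factor for small GTPases, the olfactory phosphodiesterase gene Pde1c (0.97) and Gadl1 (0.97). Gnb1 and Stoml3 had each other among their 3 nearest (0.96) together with Stom (0.94 and 0.95), and the third was Fstl5 (0.94) for Gnb1 and Hnrnpu (0.96) for Stoml3. Gng13 was nearest to Timm8b (0.98), Eloc (0.98) and Ndufb5 (0.98), of which Timm8b and Ndufb5 encode mitochondrial proteins. With experiment means subtracted, Rap1gds1 stayed first for Ric8b (0.99) and Gnb1 was first for Stoml3 (0.99). Syt1 took place 2 for Rtp1 and Pde1c place 7 for Ric8b. Some named genes fell much further, Spef2 to place 123 for Rtp1, Mmut to 192 for Rtp2 and Gpr162 to 299 for Reep1. Timm8b fell to place 235 for Gng13, Fstl5 to 701 for Gnb1 and Hnrnpu to 2320 for Stoml3. The r of these 6 was still 0.91 (Hnrnpu) to 0.98 (Gpr162). The 3 genes then nearest to Gng13 were Ppp3cb, Tcam1 and Ulk2 (0.98, 0.97 and 0.97). Their r without that step was 0.26, 0.20 and 0.0086.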

How the data were processed

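Expression was measured in sorted olfactory cells on 32 arrays, 4 in each of 8 groups. The deposited values are log2 signals of 35556 probe sets, made in Affymetrix Expression Console per the submitters' processing notes. How they were normalized and summarised is not stated in those notes. The number of arrays limits the precision.

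Probe sets with exactly 1 annotated symbol (21789) were tested, 1 a gene by the highest mean, which left 19938 genes. All arrays entered 1 fit in limma 3.58.1 (R 4.3.3), with 8 group means plus a fixed term for experiment, 14 coefficients and 18 residual degrees of freedom. Tests were two-sided. Adjusted p-values (Benjamini-Hochberg) cover all 19938 genes, and 0.05 was the threshold. The procedure was tested on simulated data.

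The experiment is the set of 4 arrays that share a number in their titles. Deviations from group means correlated in 48 of 48 pairs within experiments (r 0.20 to 0.91, threshold 0.1, median 0.66). Between experiments the median was -0.21. The deviations of a group sum to 0, which by itself draws values between its experiments below 0, so that median is no independent contrast. No 2 arrays held identical values (0 pairs).

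Named genes were the 7 members, S100a5 and Omp, up to 4 members of each list of relatives with the smallest p in the vehicle comparison, and the 3 genes most like each member. The members and lists were chosen with earlier results of these data known. Other settings were other scalings, a filter on dim probe sets, other treatments of the block, probe sets and variances, and experiments left out. Sequences and gene positions come from RefSeq tables of GRCm38.p6.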

Additional observations from a re-analysis of the deposited data

Results flagged for a closer look

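Of 56 sets of 4 arrays (7 genes in 8 groups), 6 held an array far from the other 3, with a gap to the nearest array over 0.829 of the whole range of the set. In such a screen chance marks about 1 set in 20 if the sets are independent. Here the 7 genes of a group were read on the same 4 arrays, so the count of 6 cannot be set against that rate. All 6 were arrays of muscone experiment 3 and all were the lowest of their set. For Ric8b they read 12.49 in GFP-positive cells under vehicle (gap 0.890 of the range), 11.28 in GFP-negative cells after muscone (0.843) and 12.44 in GFP-positive cells after muscone (0.874). For Stoml3 they read 13.61 in GFP-positive cells under vehicle (0.884), 13.15 in GFP-negative cells after muscone (0.887) and 13.61 in GFP-positive cells after muscone (0.893). The arrays of that experiment also had the lowest medians of all probe sets, 6.72 to 6.86, and the part of this in the 6 values was not tested.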

How the results depend on the processing

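The direction of the differences between fractions depended on 2 of the scales. Centring on the median of all probe sets left 7 of 7 genes above 0 under vehicle, after eugenol and after muscone. Under vehicle the mature markers and the median odorant receptor each put 6 of 7 below 0. Subtracting the mature markers moved the median of all genes by -0.57 under vehicle, the median odorant receptor by -0.64, and genes called higher and lower then numbered 687 and 16769 or 605 and 18070, against 8990 and 4375. With the mature markers the vehicle values became -0.43 (Gnb1), -0.10 (Gng13), -0.0087 (Ric8b), -0.28 (Rtp1), -0.062 (Rtp2) and -0.45 (Stoml3). Of these, Gng13, Ric8b and Rtp2 did not pass in limma (adjusted p = 0.394, 0.895 and 0.424). After eugenol Gnb1 was at -0.38, Gng13 at -0.065, Ric8b at -0.00016, Rtp1 at -0.28 and Stoml3 at -0.39. After muscone Gnb1 was at -0.67, Gng13 at -0.40, Ric8b at -0.10, Rtp1 at -0.33, Rtp2 at -0.12 and Stoml3 at -0.70. With the median odorant receptor, in the order Gnb1, Gng13, Ric8b, Rtp1, Rtp2 and Stoml3, the values were -0.50, -0.17, -0.079, -0.35, -0.13 and -0.52 under vehicle, -0.47, -0.15, -0.089, -0.37, -0.082 and -0.48 after eugenol and -0.73, -0.46, -0.16, -0.39, -0.18 and -0.76 after muscone. On that scale muscone minus vehicle in GFP-negative cells was 0.23 for Gnb1 and 0.25 for Stoml3, both called, which made 2 members higher. Members called higher in GFP-positive cells then numbered 1 under vehicle, 1 after eugenol and 1 after muscone with the mature markers, and 0 in each with the odorant receptors. Members called lower numbered 3, 3 and 4 with the mature markers and 4, 3 and 4 with the odorant receptors. Reep1 stayed above 0 on both scales.

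Without the replicate block, 0 members were called higher under vehicle (adjusted p = 0.441 to 0.916), after eugenol or after muscone, and 0 relative to the mature markers. With the replicate block as a random effect, Rtp1 after eugenol lost its call (adjusted p = 0.0685) and no other member's call changed. Leaving out each experiment in turn left all 7 vehicle calls in place, while members higher than the mature markers numbered 0 to 1. Centring on the array median over all probe sets made Gnb1 and Stoml3 pass after eugenol, as did array weights. A trended variance did so for Gnb1. Stoml3 after muscone missed the threshold (adjusted p = 0.06) when its experiments were fitted alone. Outside the 2 marker-based scalings no called value turned its direction. With 32 arrays, differences near 0.1 were at the edge of what could be called.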

Other observations

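Genes linked to receptor signalling and neuronal activity also differed between the fractions under vehicle. Arrb2, a beta-arrestin gene, was lower in GFP-positive cells (-0.50, SE 0.0726, adjusted p = 4.25e-06), as was Chrm3, a muscarinic receptor gene linked to odorant receptor signalling (-0.51, SE 0.115, adjusted p = 5.70e-04). Both stayed lower under each of the 4 other scalings. All 4 genes of a list raised by olfactory neuron activity were higher, with a median of 0.94, beside 45.1% of all genes. The list includes S100a5, the gene whose reporter defined the fractions. Relative to the mature markers 3 of the 4 were higher, beside 3.45% of all genes. The 1 that was not called was S100a5, which lay above 0 in 4 of 8 experiments on that scale (median -0.05). Relative to the median odorant receptor 2 were higher, beside 605 of 19938 genes, and on both scales 0 were lower. Of 4 Bowman's gland markers 1 was lower and 0 were higher, and of 7 sustentacular cell markers 2 were lower and 0 higher, beside 21.9% of all genes lower. Relative to the mature markers, where 84.1% of all genes were lower, 3 of the 4 and 6 of the 7 were lower.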
